A study of Arabidopsis thaliana with 12 samples.

Results

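The transcripts of 2 protein kinase genes of Arabidopsis thaliana, AT3G25840 and ATSIK (AT3G08760), are described in the mutant mak3 and in wild type (WT). They are 2 of the 691 genes that the probe annotation names alone. Each is read by 1 probe, and 0 other probes name either of them. The members were chosen on measured values: among probes for a single gene that were higher in mak3, AT3G25840 had place 1 and ATSIK place 3 in the order of p in the mak3 against WT comparison. The mak3 minus WT differences below are therefore a description and carry no test. The last genes inside that choice of 5 were DME, at a normalized log2 difference of 0.23, and AT1G49850, at 0.75, and the first outside it was AT3G50130, at 0.84.

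The study read total RNA from the mak3 mutant and from WT plants on 12 arrays, 6 for each genotype. Both genotypes are of the Columbia 0 ecotype, and the labels describe mak3 as lacking a normal N-acetyltransferase of the cytoplasm. No label gives the allele, the number of plants, the tissue, the age or the growth conditions. The design asks which transcripts differ between the mutant and WT.

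Protein kinases pass a phosphate group from ATP to serine, threonine or tyrosine residues of other proteins and so switch their activity or binding. Kinases of the PRP4 type, known first from fission yeast, act on pre-mRNA splicing: they phosphorylate proteins of the spliceosome, the machine that removes introns. AT3G25840 encodes a plant kinase of this type. ATSIK encodes a protein kinase that has been described in Arabidopsis as induced by osmotic stress. MAK3 is the catalytic subunit of an acetyltransferase that modifies the first residue of proteins while they are made.

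Each array gave 1 deposited intensity for each of 3439 probes, on a linear scale with a mean of 0.946 to 1.05 for each array. The deposited array medians ran from 0.420 to 0.599 in mak3 and from 0.559 to 0.605 in WT. The labels do not state whether any arrays are repeat readings. Arrays 1-2, 3-4 and 5-6 of a genotype deviated alike, and on this basis alone their 2 values are called repeat readings and were averaged to 1 sample, which left 3 samples per genotype. The labels do not tell whether the 3 samples are separate plants or cultures, and the spread between them may be technical. The number of samples limits the precision, and whether a probe lay above background was not analysed here. One leaf marker of the 18 tissue markers looked for had a probe for it alone: LHB1B2, a chlorophyll-binding antenna protein, stood above 98.7% to 99.3% of the probes on all 12 arrays. Its normalized mak3 minus WT difference was -0.36 ± 0.18 (log2, moderated SE, n = 3 against 3), with -0.69, -0.14 and -0.25 in pairs 1-2, 3-4 and 5-6, and its part in the results for the kinase genes was not tested.

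AT3G25840, the PRP4-type kinase gene, was a transcript of middling rank that stood higher in all mak3 arrays than in any WT array when ranked within its array. Its deposited intensity was 0.949 and 1.03 on mak3 arrays 1 and 2, against 0.408 and 0.515 on WT arrays 1 and 2. It was 0.547 and 0.514 on mak3 arrays 3 and 4, against 0.486 and 0.436 on WT arrays 3 and 4. It was 0.520 and 0.544 on mak3 arrays 5 and 6, against 0.518 and 0.504 on WT arrays 5 and 6. The first mak3 pair was far above the other mak3 arrays, whereas the 6 WT arrays lay in a narrow band. As deposited, the genotypes overlapped, since mak3 array 4 was below WT arrays 2 and 5.

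A rank within an array needs no scaling between arrays, but it moves with the levels of the other probes. By this measure AT3G25840 stood above 76.1% and 79.8% of the probes on mak3 arrays 1 and 2, against 31.9% and 43.2% on WT arrays 1 and 2. It stood above 57.0% and 52.4% on mak3 arrays 3 and 4, against 41.0% and 34.8% on WT arrays 3 and 4. It stood above 62.5% and 64.2% on mak3 arrays 5 and 6, against 40.2% and 38.6% on WT arrays 5 and 6. All mak3 arrays had the gene in the upper part of the probes and all WT arrays in the lower part, with no overlap. The choice of the gene by p favours such a gap. On the normalized scale used below, 1.16% of all probes had all 6 mak3 arrays above all 6 WT arrays. The share by rank is not given here. The percentile averaged 65.3 ± 11.7 in mak3 and 38.3 ± 0.987 in WT (SD, n = 3 each), a difference of 27.1 percentile points.

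**Figure D1:**
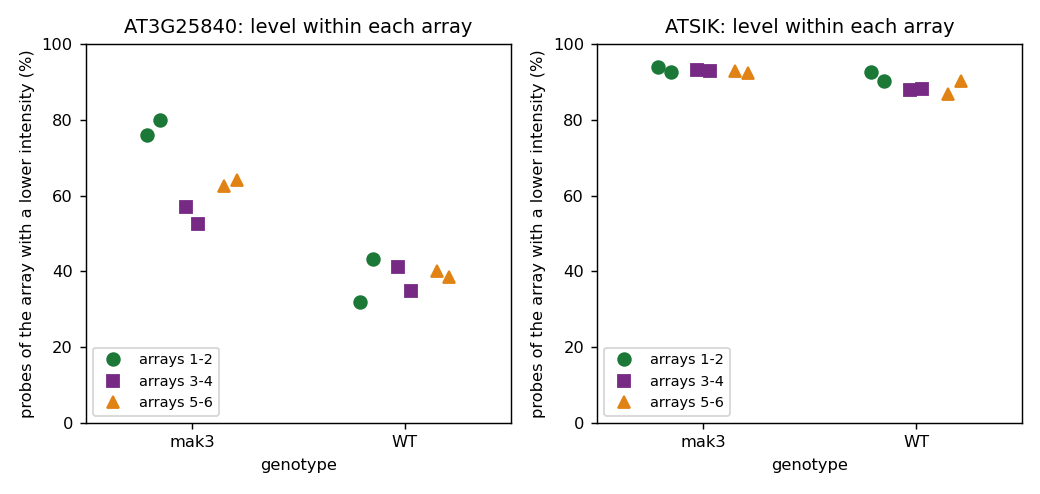
Level of AT3G25840 (left) and ATSIK (right) within each array, as the percentage of the 3439 probes with a lower deposited intensity, for the 6 mak3 and the 6 WT arrays; each point is 1 array and its colour and shape give the array pair. For AT3G25840 the mak3 arrays lie between 52.4% and 79.8% and the WT arrays between 31.9% and 43.2%, while for ATSIK the mak3 arrays lie between 92.4% and 94.0% and the WT arrays between 86.7% and 92.6%.

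For the averages and differences, the arrays were quantile-normalized and put on the log2 scale. Quantile normalization keeps the order of the probes within an array, so its values are not separate from the ranks above. The normalized log2 level of AT3G25840 was -0.17, -0.77 and -0.56 in mak3 pairs 1-2, 3-4 and 5-6, against -1.21, -1.20 and -1.15 in the same pairs of WT. The mean was -0.50 ± 0.30 in mak3 and -1.19 ± 0.03 in WT (SD, n = 3 each). The difference was 0.69 ± 0.17 (mak3 minus WT, moderated SE), or 1.61-fold. In order of level the samples ran from mak3 1-2 through mak3 5-6, mak3 3-4, WT 5-6 and WT 3-4 to WT 1-2. The lowest mak3 sample stood 0.39 above the highest WT sample, a gap that the choice of the gene favours. The 3 WT samples followed each other by 0.04 and 0.01, less than their repeat readings differed (0.17 and 0.31), so no order is read among them.

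The spread of AT3G25840 over the pairs was unlike in the 2 genotypes. Its WT SD of 0.03 was larger than that of 4.71% of the probes, where the median probe had 0.33. The choice of the gene by p favours a small spread within a genotype, so this share is a description only. Its mak3 SD of 0.30 was close to that of the median probe, also 0.30. Of the mak3 samples, pair 1-2 was 0.39 above pair 5-6, which was 0.21 above pair 3-4.

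By array pair, AT3G25840 had normalized mak3 minus WT differences of 1.04, 0.43 and 0.59 (pairs 1-2, 3-4 and 5-6). These values exceeded 97.3%, 89.7% and 92.4% of the differences of all probes in the same pairs. As deposited the differences were 1.11, 0.20 and 0.06 in the same order, or ratios of 2.14, 1.15 and 1.04. In those deposited values the median of all probes was at 0.02, -0.15 and -0.44, and against that median AT3G25840 was at 1.09, 0.35 and 0.50. The size in pairs 3-4 and 5-6 thus depends on whether the lower median intensity of the mak3 arrays of these pairs is taken off. The mean of pairs 3-4 and 5-6 was 0.51 after normalization, against 0.69 over all 3 pairs, and 0.13 as deposited, against 0.46. The analysis run again without pair 1-2 gave a normalized difference of 0.49. Whether the lower array medians contributed to the difference was not tested.

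**Figure D2:**
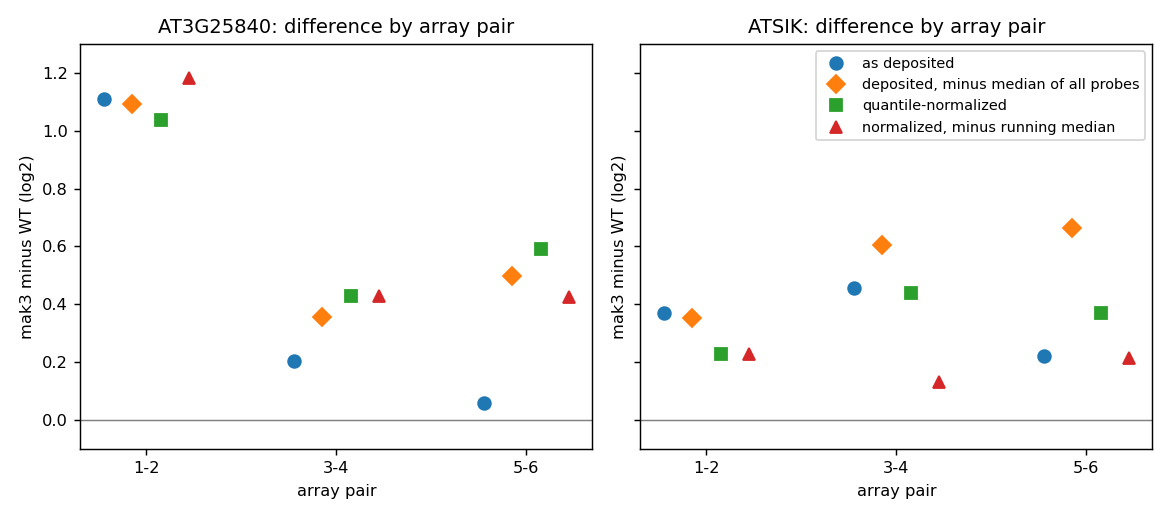
The mak3 minus WT difference (log2) of AT3G25840 (left) and ATSIK (right) in array pairs 1-2, 3-4 and 5-6, with the values as deposited, the same relative to the median of all probes, after quantile normalization, and after the running median of neighbouring probe numbers was also taken off. AT3G25840 is highest in pair 1-2 on each scale (1.04 to 1.18), and in pair 5-6 it goes from 0.06 as deposited to 0.59 after normalization; ATSIK stays between 0.13 and 0.66 in all pairs.

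ATSIK, the kinase gene tied to osmotic stress, was read by a bright probe on every array and was modestly higher in mak3 within each pair. Its deposited intensity was 1.97 and 1.73 on mak3 arrays 1 and 2, against 1.50 and 1.35 on WT arrays 1 and 2. It was 1.71 and 1.64 on mak3 arrays 3 and 4, against 1.22 and 1.23 on WT arrays 3 and 4. It was 1.58 and 1.49 on mak3 arrays 5 and 6, against 1.23 and 1.41 on WT arrays 5 and 6. Each mak3 array was brighter than both WT arrays of its own pair. Across pairs the genotypes overlapped, since mak3 array 6 was just below WT array 1.

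Within the arrays, ATSIK stood above 94.0% and 92.5% of the probes on mak3 arrays 1 and 2, against 92.6% and 90.3% on WT arrays 1 and 2. It stood above 93.1% and 92.8% on mak3 arrays 3 and 4, against 87.9% and 88.2% on WT arrays 3 and 4. It stood above 92.8% and 92.4% on mak3 arrays 5 and 6, against 86.7% and 90.1% on WT arrays 5 and 6. WT array 1 was the 1 WT array to reach the mak3 range. From the brightest probe down, its rank was 207 to 261 on mak3 arrays and 253 to 457 on WT arrays. The percentile averaged 92.9 ± 0.313 in mak3 and 89.3 ± 1.88 in WT (SD, n = 3 each), a difference of 3.62 percentile points.

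The normalized log2 level of ATSIK was 0.80, 0.73 and 0.69 in mak3 pairs 1-2, 3-4 and 5-6, against 0.57, 0.29 and 0.32 in the same pairs of WT. The mean was 0.74 ± 0.06 in mak3 and 0.39 ± 0.15 in WT (SD, n = 3 each), and the difference was 0.35 ± 0.10 (mak3 minus WT, moderated SE), or 1.27-fold. The 3 mak3 samples were the highest, but the lowest of them was only 0.12 above WT pair 1-2, less than the repeat readings of that WT pair differed (0.24). The gap of 0.25 between WT pair 1-2 and the next WT sample was the 1 step in the order that exceeded the repeat readings of its samples. Both genotypes varied little over the pairs: the SD was larger than that of 6.66% of the probes in mak3 and of 18.6% in WT. A choice by p favours genes with a small spread within a genotype, so nothing is read from these shares.

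After normalization ATSIK differed by 0.23 between the genotypes in pair 1-2, by 0.44 in pair 3-4 and by 0.37 in pair 5-6, which exceeded 80.1%, 90.2% and 83.5% of the differences of all probes. In pair 1-2 the 2 repeat readings differed by 0.25 in mak3 and by 0.24 in WT, both more than the genotype difference of that pair. As deposited the differences were 0.37, 0.45 and 0.22, or ratios of 1.29, 1.37 and 1.16. Against the median of all probes these deposited differences were 0.35, 0.61 and 0.66. Unlike AT3G25840, ATSIK thus had no pair that stood far above the others, and the SD of its 3 normalized differences was 0.11, against 0.32 for AT3G25840.

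Probes with neighbouring numbers lay on the same side as ATSIK in pairs 3-4 and 5-6 but not in pair 1-2, and on the same side as AT3G25840 in pair 5-6 alone by the running median. At ATSIK, the running median of the 51 probes around it was 0.00, 0.31 and 0.16 in pairs 1-2, 3-4 and 5-6. With this taken off, its differences were 0.23, 0.13 and 0.21. At AT3G25840 the running median was -0.14, 0.00 and 0.17, which left 1.18, 0.43 and 0.42. The median over probes at like places of the repeating layout of probe numbers was -0.07, 0.20 and 0.24 for ATSIK and -0.02, 0.31 and 0.37 for AT3G25840, and left 0.30, 0.24 and 0.12 for ATSIK and 1.06, 0.11 and 0.23 for AT3G25840. The sign, which the choice of the genes favours, remained positive in each pair under both corrections. The part of position in the differences was not tested beyond these values.

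Read against all probes, neither gene stood at the edge of the table by size: the normalized difference of AT3G25840 ranked 75th and that of ATSIK 358th from the top among the 3439 probes. In limma, 0 of the 2 genes were called in mak3 against WT at an adjusted p under 0.05, where 0% of all probes were called, and 134 probes had an unadjusted p under 0.05. Both genes were higher in mak3 in all 3 pairs, as were 16.3% of all probes. For AT3G25840 all 6 mak3 arrays lay above all 6 WT arrays on the normalized scale, as for 1.16% of all probes, and for ATSIK they did not. The choice of the members used this contrast, so nothing is read from these counts.

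**Figure D3:**
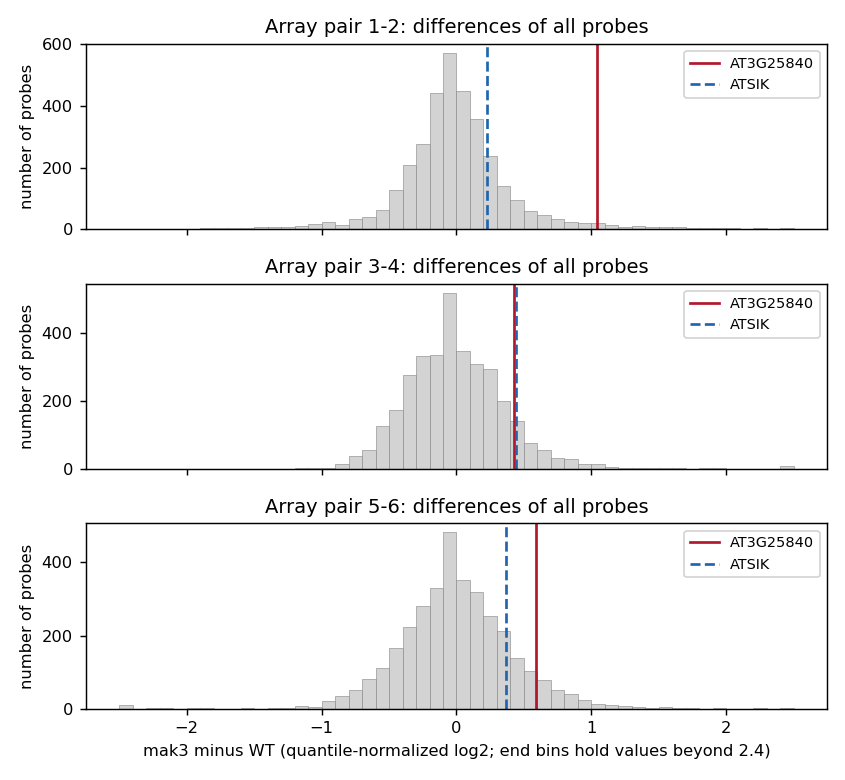
Distribution of the mak3 minus WT differences (quantile-normalized log2) of all 3439 probes in each array pair, in bins of 0.1, with AT3G25840 as a solid line and ATSIK as a dashed line. AT3G25840 lies in the upper tail in pair 1-2 (1.04) and closer to the bulk in pairs 3-4 (0.43) and 5-6 (0.59), and ATSIK lies within the upper shoulder in each pair (0.23, 0.44 and 0.37).

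The repeat readings give the size of the reading error, and they are separate from the genotype contrast. Over the 6 pairs the 2 arrays of a pair differed by a median of 0.14 on the log2 scale for ATSIK and 0.11 for AT3G25840, against 0.10 for the median probe. The largest repeat difference was 0.25 for ATSIK, in mak3 pair 1-2, and 0.31 for AT3G25840, in WT pair 1-2. Repeat readings leave out the spread between separate samples, so a genotype difference larger than they are may still lie within that spread.

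The level patterns over the 6 samples were compared with those of 646 other probes that name 1 gene and were above 0 on every array, by Pearson's r of the normalized log2 levels. The points share the arrays, and the genotype difference that chose the members enters r, so the values are a description. For AT3G25840 the most alike were PRA1.B3, of the prenylated RAB acceptor family, at r = 0.968, AT4G31530 at 0.928, and DME, which excises methylated cytosine from DNA, at 0.898. AT3G09850 and AT4G32060, both at 0.888, came next. Their levels were unlike: the mean percentile was 99.7 for AT4G31530, 99.8 for AT3G09850 and 93.7 for AT4G32060. It was 22.5 for PRA1.B3 and 47.2 for DME, against 51.8 for AT3G25840. The median over all 646 was 0.0186 and 5% lay above 0.689. The choice by likeness favours a shared pattern. Like AT3G25840, PRA1.B3, AT4G31530, AT3G09850 and AT4G32060 had their largest mak3 minus WT difference in pair 1-2, at 0.52, 1.12, 1.08 and 1.74, while DME was even over the pairs (0.21, 0.21 and 0.27).

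For ATSIK the most alike were AT1G73090 at r = 0.975, AT5G65490 at 0.924, AT2G39100 at 0.921, AT1G71910 at 0.901 and AT3G17550 at 0.893. They were dimmer than ATSIK, whose mean percentile of level was 91.1. AT1G73090 was at 7.93, among the dimmest probes, and the others were at 36.8 to 67.8. The median over all 646 was 0.0131 and 5% lay above 0.751. All 5 had a smaller difference in pair 1-2 (0.04 to 0.38) than in pairs 3-4 and 5-6 (0.32 to 1.37), the same order as in ATSIK. AT3G25840 was 16th in likeness to ATSIK, and ATSIK 18th in likeness to AT3G25840, at r = 0.823. The largest normalized difference of AT3G25840 was in pair 1-2 and that of ATSIK in pair 3-4. For ATSIK the pair with the largest difference changed with the scale. It was 5-6 against the median of all probes as deposited (0.66), and 1-2 with the running median taken off (0.23).

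**Figure D4:**
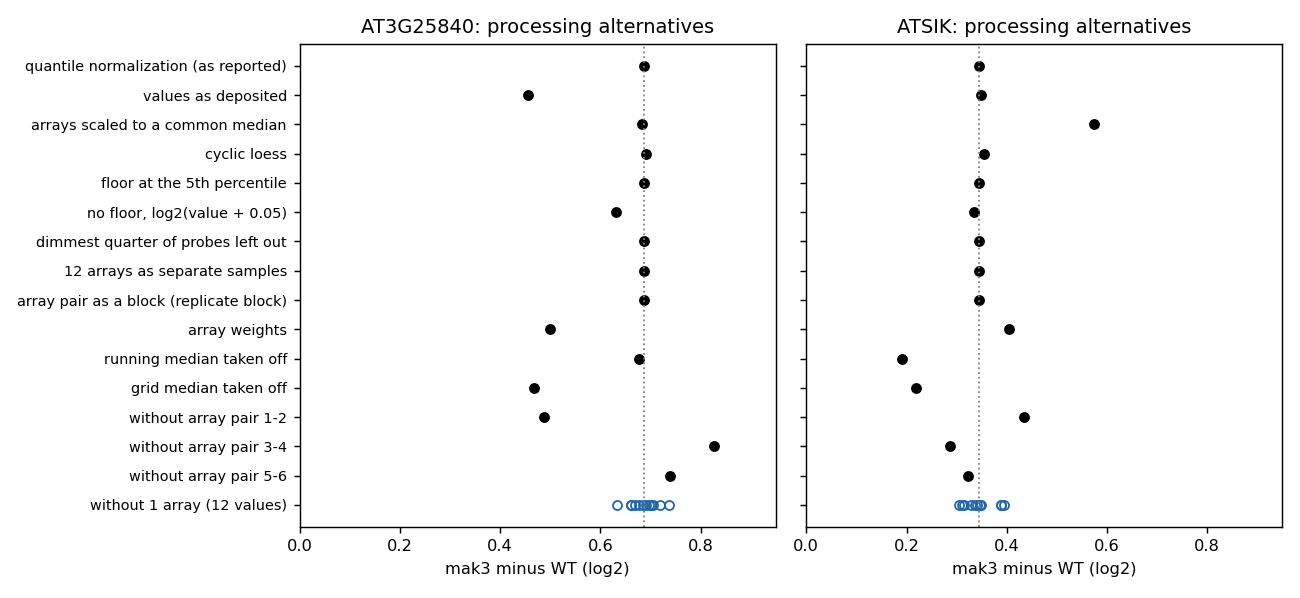
The mak3 minus WT difference (log2) of AT3G25840 (left) and ATSIK (right) under each processing alternative, with the reported value as a dotted line; filled points are single settings and open circles the 12 values with 1 array left out. All values are above 0, which the choice of the genes favours, from 0.46 to 0.83 for AT3G25840 and from 0.19 to 0.57 for ATSIK.

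Few other genes of the same pathways could be set beside the members. Of 50 loci listed for splicing (spliceosome proteins, SR proteins and their kinases), 1 had a probe of its own, AT3G25840 itself, and 0 probes for a single gene were found as protein kinases by words in the gene table. That table holds no description for most loci, ATSIK and AT3G25840 among them, so this 0 reflects the annotation and not what the arrays measured. Osmotic stress and abscisic acid genes came from 28 listed loci and from a like search by words, which can miss genes without a description. Of those found, 1 had a probe of its own: DI21, a drought-induced gene, which ATSIK's tie to osmotic stress makes of interest. DI21 did not pass in limma, with a mak3 minus WT difference of 0.57 ± 0.52 (moderated SE, n = 3 against 3) that split into 1.95 for pair 1-2, 0.06 for pair 3-4 and -0.30 for pair 5-6. A pair of probes that name both COR15A and COR15B, genes of cold and drought response, were at -0.10 and -0.40, and the identity of probes with several genes is uncertain.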

How the data were processed

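Genotypes and array numbers come from the labels. The deposited values are 1 intensity for each probe and array. The scanning, background correction and scaling by which the authors made these deposited intensities are not stated in any label or file header, and both scale and centre are unknown. Of 3439 probes, 692 name 1 gene in the platform annotation (690 matched through gene identifiers to the RefSeq table of assembly TAIR10.1), 870 name several and 1877 are unnamed here. No sequences or coordinates are given, as no genome or sequence table was used here.

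Quantile normalization was run over the 12 arrays (limma 3.58.1, R 4.3.3). Values under the 1st percentile of the positive deposited values (0.0396) were raised to that value (at most 166 probes on an array, neither member among them) before log2 was taken. Within a genotype, arrays 1-2, 3-4 and 5-6 shared their deviations from the genotype mean (r = 0.757 to 0.883, and at most -0.0641 for other arrays of that genotype), so they were averaged. Taking off the genotype mean by itself tends to push r between different pairs below 0, so the averaging rests on the high r within pairs. All probes were fitted with limma (lmFit and eBayes, two-sided, Benjamini-Hochberg adjustment, threshold 0.05), and the printed SE is limma's moderated SE. The samples of both genotypes with the same pair number deviated together (r = 0.601, 0.556 and 0.738 over probes), so by the data the numbers pair the samples. Values reported are from the fit that leaves the pair number out.

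Members and gene lists were chosen with earlier results of these data known. Named genes are both members, the 5 probes most alike to each by Pearson's r, measured members of the lists and the genes at the edge of the choice. Percentiles are the share of all probes of the array with a lower deposited intensity. Alternatives changed the normalization, the floor, the probes and arrays kept, the pairing and the correction for probe position.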

Additional observations from a re-analysis of the deposited data

Results flagged for a closer look

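For ATSIK, mak3 array 1 was set apart from the other mak3 arrays: its normalized log2 level was 0.92 and the next array's 0.75. That gap takes up 0.660 of the range of the 6 arrays, more than Dixon's test allows at its 95% level. The other 3 groups of 6 arrays examined (ATSIK in WT and AT3G25840 in both genotypes) gave 0.169 to 0.485. With independent values, chance would do this in about 1 of 20 groups, but repeat readings are not independent. Without that array the ATSIK difference was 0.31.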

How the results depend on the processing

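Over 26 alternatives the mak3 minus WT difference kept its sign for both kinase genes, from 0.46 to 0.83 for AT3G25840 and from 0.19 to 0.57 for ATSIK. Both genes were chosen as higher in mak3 on these arrays, which favours a kept sign. The higher floor, the removal of dim probes, the pair block and the separate entry of arrays left both differences unchanged, so they add nothing here. The ATSIK difference moved by more than its spread over pairs in 3 of them: it was 0.57 with arrays scaled to a common median, 0.19 with the running median taken off and 0.22 with the grid median taken off, and the cause was not tested. As deposited the median of all probes was at -0.19, with AT3G25840 at 0.46 and ATSIK at 0.35. With 1 array or 1 array pair left out, AT3G25840 ran from 0.49 to 0.83 and ATSIK from 0.29 to 0.43. With the array pair as a block (replicate block) the differences were the same, 0.69 and 0.35, with moderated SEs of 0.16 and 0.07, and limma again called 0 probes (458 at an unadjusted p under 0.05); the block changed no other call. With the 12 arrays entered one by one, so that every sample counts 2 times, 24 of the 3439 probes were called. AT3G25840 was among them and ATSIK was not, but the choice of the members used this contrast, so nothing is read from these calls. The other 25 alternatives called 0. The percentile difference (alternatives chosen after seeing the data) ran from 20.4 to 32.2 points for AT3G25840 and from 2.995 to 4.54 for ATSIK. The median percentile of level over the arrays ran from 43.2 to 52.4 and from 92.0 to 93.7 in the same order. DI21 was at -0.12 without pair 1-2 and at 0.13 or more otherwise. The protein kinase and splicing lists held no gene beyond AT3G25840, so their medians were not run. The kinase list rested on descriptions that the gene table lacks for most loci.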
